A study of Mus musculus with 9 samples.

Results

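The genes described here are Cxcl9, Cxcl10 and Cxcl11, whose proteins are the ligands of the chemokine receptor CXCR3, and Ccl5, which encodes a ligand of CC chemokine receptors, CCR1 and CCR3 among them. They are 4 of the 52550 genes in the authors' deposited count table and were chosen by symbol, because their counts with one inhibitor, FMK, were known to be far above those of the vehicle. The counts of FMK and vehicle cultures therefore describe these genes and are not a test of them.

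The counts came from micromass cultures, which are drops of densely plated cells, here from mouse fore limbs at embryonic day 12, in a medium that favours cartilage formation. Each of 3 groups had 3 libraries. The FMK group received Z-VAD-FMK at 100 µM and the OPH group received Q-VD-OPH at 100 µM, while the DMSO group received the solvent of the inhibitors alone. RNA was harvested after 6 days of treatment with medium changes every second day, and the labels name neither a mouse strain nor the number of embryos behind a culture. Both compounds are cell-permeable inhibitors of most caspases that bind the enzymes irreversibly, and they differ in the peptide part, in the end caps and in the reactive group, a fluoromethyl ketone in Z-VAD-FMK and a difluorophenoxymethyl ketone in Q-VD-OPH. The labels call the samples limb-derived chondroblasts and the cultures biological replicates. They do not say what separates one replicate from another, so p-values set differences between groups against the spread between these libraries, whatever its source.

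CXCL9, CXCL10 and CXCL11 are small secreted proteins that draw activated T cells and NK cells, and their genes are textbook targets of interferons. CCL5 draws T cells, monocytes and eosinophils, and its gene answers to NF-kB and to interferon regulatory factors. Secretion of these chemokines is not limited to immune cells, since fibroblasts and epithelial cells make them after contact with interferons, cytokines or foreign nucleic acid. A transcript count says nothing about the secreted protein.

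The 3 CXCR3 ligand genes lie side by side on the minus strand of chromosome 5, within 44.1 kb (GRCm38, GENCODE M21). Cxcl9 (ENSMUSG00000029417) covers 92321347 to 92328079, Cxcl10 (ENSMUSG00000034855) covers 92346638 to 92348889, and Cxcl11 (ENSMUSG00000060183) covers 92359544 to 92365485. Ccl5 (ENSMUSG00000035042) lies on the minus strand of chromosome 11, at 83525778 to 83530518. The annotation lists Cxcl11 as a polymorphic pseudogene, a gene that is disrupted in the reference strain and intact in some others, so its counts stand for transcripts and not for a protein in these cultures.

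The 250 bases before the RefSeq start of Cxcl10 and Cxcl9 are shown because both genes were far higher with either inhibitor while their windows differ in motif content. The RefSeq table (GRCm38.p6) held 2 of the 4 genes. Cxcl10 lies at chr5:92348890-92349139 and Cxcl9 at chr5:92328080-92328329, both on the minus strand and both printed 5′ to 3′ in the direction of transcription. Capitals mark every match to the motifs searched on both strands, which were the core of the interferon-stimulated response element (ISRE, GAAANNGAAA), the NF-kB consensus, the gamma-activated site core (GAS, TTCNNNGAA) and the AP-1 core (TGANTCA).
Cxcl10: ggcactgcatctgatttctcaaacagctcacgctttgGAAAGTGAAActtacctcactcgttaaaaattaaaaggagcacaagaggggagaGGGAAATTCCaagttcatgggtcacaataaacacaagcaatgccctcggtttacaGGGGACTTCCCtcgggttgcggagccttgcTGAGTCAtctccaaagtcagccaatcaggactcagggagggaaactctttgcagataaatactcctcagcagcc
Cxcl9: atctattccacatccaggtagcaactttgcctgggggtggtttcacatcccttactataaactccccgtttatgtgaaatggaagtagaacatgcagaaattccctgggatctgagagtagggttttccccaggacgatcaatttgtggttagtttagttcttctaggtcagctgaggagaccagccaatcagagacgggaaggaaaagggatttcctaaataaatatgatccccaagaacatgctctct

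In the Cxcl10 window the ISRE core GAAAGTGAAA stood 213 to 204 bases before the start. An NF-kB match, GGGAAATTCC, stood at 159 to 150 bases, and a stretch from 104 to 94 bases held 2 overlapping NF-kB matches. The AP-1 core TGAGTCA stood at 74 to 68 bases. Of 32851 windows of the same length, 2.98% held the ISRE core, 7.25% the NF-kB consensus, 7.02% the GAS core and 6.75% the AP-1 core. An ISRE core and an NF-kB match stood together in 54 windows (0.164%), of which that of Cxcl10 is one. The Cxcl9 window held none of these letters, which says nothing about factors that bind elsewhere or to other letters.

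The libraries were read from the 3′ ends of polyadenylated RNA and held 5659789 to 6867350 counts. Within each group the libraries differed beyond counting noise, a chi-square test giving 5.47 to 13.5 for each degree of freedom. Cartilage markers were present in every group, and Col2a1, the main collagen of cartilage, was at 1336 ± 302 CPM with DMSO (SD, n = 3), 425 ± 38.7 with FMK and 649 ± 245 with OPH. CPM are counts relative to the library size after scaling by edgeR's TMM method. Libraries numbered 3 stood apart in adipocyte markers, whose summed level was 482 CPM in DMSO 3 against 2153 and 2456 in the other 2 DMSO libraries, and 722 CPM in OPH 3 against 2297 and 2793. They also stood apart in skeletal muscle markers, whose summed level was 569, 407 and 515 CPM in DMSO 3, FMK 3 and OPH 3. It was at most 242 CPM in the libraries numbered 1 and 2. Log2 fold changes of the 4 genes are therefore also given for libraries 1 and 2 alone, as are those counts of genes called in a list that moved by over 1.5 times there.

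With DMSO the 4 genes were close to the limit of detection, and with either inhibitor each had at least 61 counts in every library. All 4 passed the low-count filter (13255 genes), but none reached its level in all 3 DMSO libraries, so they entered the test through the inhibitor groups. Depth limits the DMSO values, since 3 counts over the 3 DMSO libraries equal 0.154 CPM.

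Cxcl10, the interferon-inducible ligand also known as IP-10, had 25, 6 and 13 counts in DMSO 1, 2 and 3. It had 4534, 6625 and 2680 counts in the FMK libraries and 4111, 3851 and 3007 in the OPH libraries. In CPM these were 3.89, 0.968 and 1.89 with DMSO, 741, 1027 and 493 with FMK, and 586, 548 and 476 with OPH. All 6 inhibitor libraries lay far above the highest DMSO library. FMK 2 was the highest library of all, and the ranges of the inhibitor groups overlapped.

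Ccl5, also known as RANTES, had 21, 15 and 9 counts with DMSO, 3568, 5083 and 2493 with FMK and 2396, 2603 and 1929 with OPH. Its CPM were 3.27, 2.42 and 1.31 with DMSO, 583, 788 and 459 with FMK and 342, 370 and 305 with OPH. It was the only one of the 4 genes for which the FMK and OPH libraries did not overlap, the lowest FMK library lying above the highest OPH library, as was so for 13.2% of all genes tested.

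Cxcl9, the ligand classically linked to interferon gamma, had 5 counts in DMSO 1 and 0 in DMSO 2 and 3. With FMK it had 199, 214 and 145 counts (32.5, 33.2 and 26.7 CPM), and with OPH 278, 287 and 169 (39.6, 40.8 and 26.7 CPM). All of its counts in the vehicle group thus came from 1 library, and the inhibitor groups shared their lowest value. Without DMSO 1 the gene was at least 135-fold higher with FMK and at least 157-fold higher with OPH, taken against 3 counts over the remaining DMSO libraries.

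Cxcl11, the CXCR3 ligand that also binds the scavenger ACKR3, had 0, 0 and 2 counts with DMSO. With FMK it had 119, 387 and 287 counts (19.4, 60.0 and 52.8 CPM), and with OPH 61, 219 and 128 (8.70, 31.1 and 20.3 CPM). Library 1 was the lowest of both inhibitor groups, and their ranges overlapped. The summed counts, 793 with FMK and 2 with DMSO, gave a ratio of 429 after scaling (95% counting interval 119 to 3553), and 408 with OPH gave a ratio of 195 (53.7 to 1619). These intervals cover counting error only, and copies made by PCR are not independent molecules.

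**Figure D1:**
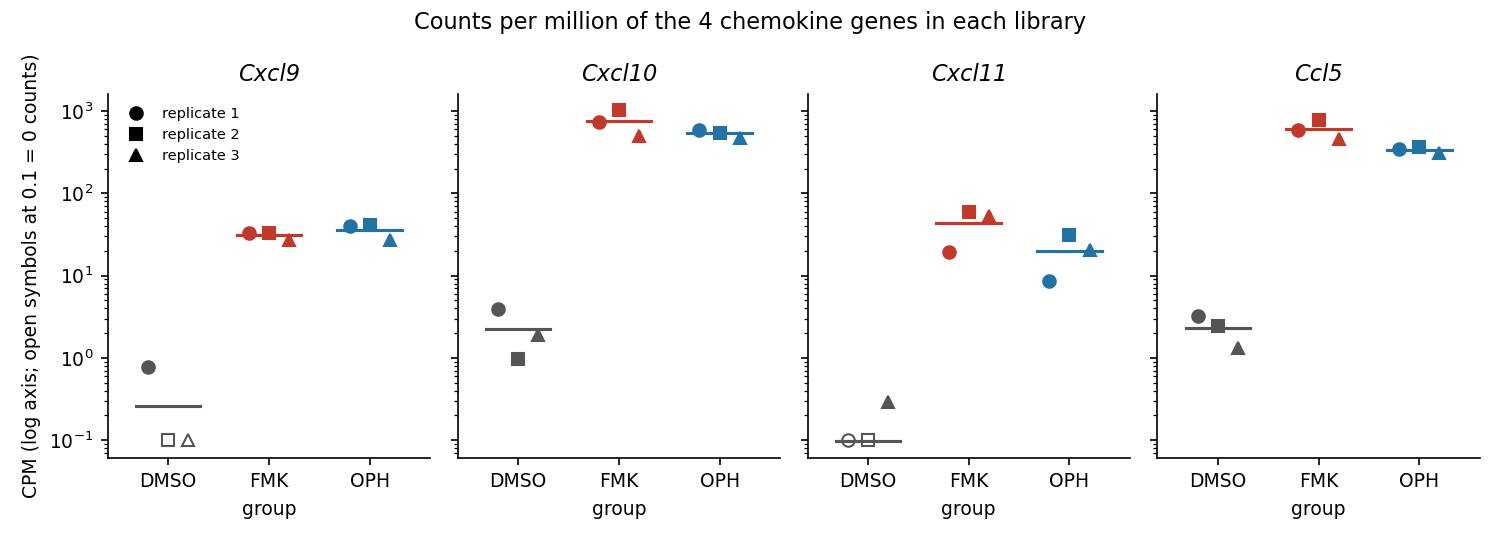
CPM of Cxcl9, Cxcl10, Cxcl11 and Ccl5 in each of the 9 libraries on a log axis, by group, with the marker shape giving the replicate number, a line at the group mean and open symbols for 0 counts. Every inhibitor library of the 4 genes lies above every DMSO library, and the FMK and OPH libraries are separate for Ccl5 alone.

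Against DMSO, FMK cultures had log2 fold changes of 8.37 ± 0.49 for Cxcl10 (SE of the fit, 3 libraries a group), 8.03 ± 0.33 for Ccl5, 6.80 ± 0.48 for Cxcl9 and 8.50 ± 1.16 for Cxcl11. The last value rests on 2 counts and depends on the small count that the fit adds, so the ratio above is the better description. By log2 fold change Cxcl11, Cxcl10, Ccl5 and Cxcl9 held ranks 2, 3, 4 and 10 of the 13255 genes tested. These genes were picked from this contrast, so the 4 of 4 that were higher add no evidence beside the 10.4% of all genes called higher, or the 17.4% whose FMK libraries all lay above the DMSO libraries. In the authors' deposited table the log2 fold changes of DMSO over FMK were smaller in size, at -5.44 for Cxcl10, -6.46 for Ccl5, -4.42 for Cxcl9 and -2.52 for Cxcl11. Whether the deposited fold changes were shrunken towards 0 is not given in the sources used here, so their sizes and their order are not comparable with those of the fit. An unshrunken DESeq2 fit of the same counts gave 8.38 for Cxcl10 and 8.76 for Cxcl11.

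OPH cultures also held more of each transcript than DMSO cultures. Cxcl10 rose by 7.88 ± 0.48 on the log2 scale (adjusted p = 9.88e-05, edgeR), Ccl5 by 7.18 ± 0.33 (adjusted p = 5.83e-06), Cxcl9 by 7.02 ± 0.47 (adjusted p = 2.91e-07) and Cxcl11 by 7.36 ± 1.25 (adjusted p = 0.00916). The adjustment was over all 13255 genes. All 4 genes were called higher, as were 8.61% of all genes, and 16.6% of all genes had their OPH libraries above all DMSO libraries. The 4 genes held ranks 1 (Cxcl10), 3 (Cxcl11), 5 (Ccl5) and 6 (Cxcl9) by log2 fold change. Over all genes the median was -0.002. The comparison uses the DMSO libraries whose low counts were already known, and the genes passed the filter through the inhibitor groups. The genes were also chosen with earlier results of these data known, so these values are a description and not independent support. The authors' deposited table gave -5.03, -5.70, -4.62 and -1.82 for Cxcl10, Ccl5, Cxcl9 and Cxcl11 as DMSO over OPH, values to which the same limit on shrinkage applies.

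The call of Cxcl11 with OPH was lost with limma-voom (adjusted p = 0.0679), without DMSO 3 (adjusted p = 0.0752), which holds both of its DMSO counts, and in libraries 1 and 2 alone (adjusted p = 0.269). Over the 18 alternatives its adjusted p was 6.74e-15 to 0.269. Without DMSO 3 the gene was at least 185-fold higher with FMK and at least 84.3-fold higher with OPH. In libraries 1 and 2 alone, the log2 fold changes of Cxcl10, Ccl5 and Cxcl9 were 7.84, 6.96 and 6.60 with OPH and 8.48, 7.90 and 6.31 with FMK. Leaving out DMSO 1, the library with the most Cxcl10 counts of its group, moved the log2 fold change of Cxcl10 to 9.0 with FMK and 8.51 with OPH, over 1.5 times in fold. Leaving out DMSO 3 moved that of Cxcl9 to 6.22 with FMK and 6.43 with OPH.

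**Figure D2:**
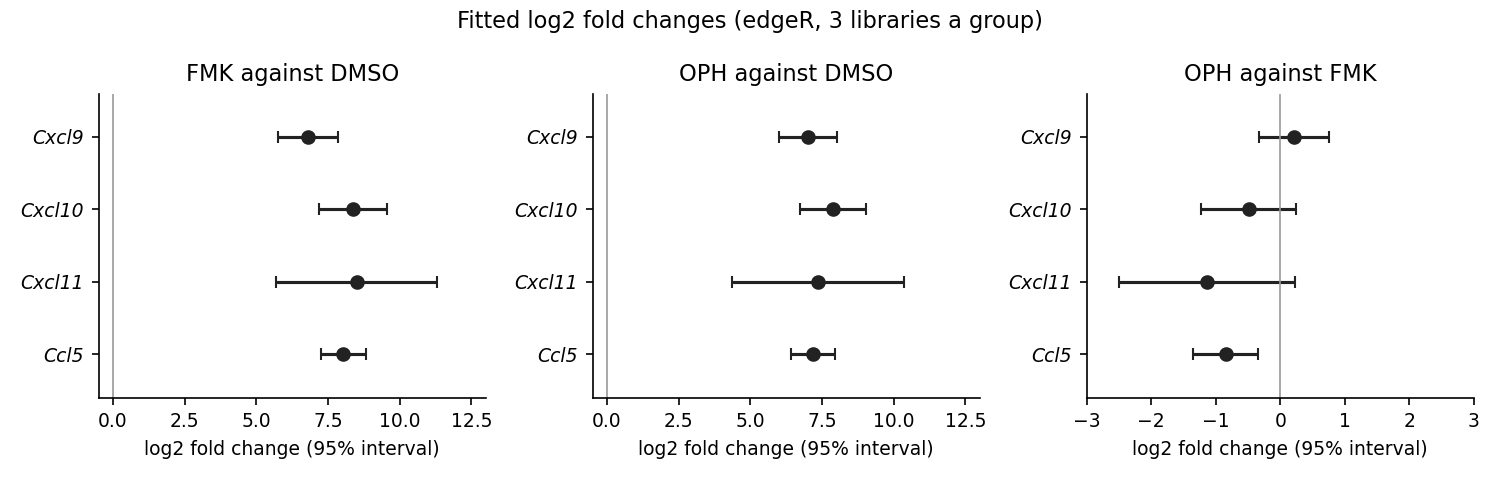
Fitted log2 fold change of each gene in the 3 comparisons, with 95% intervals not adjusted for the number of genes, from 3 libraries a group. Against DMSO the 4 genes lie between 6.80 and 8.50 with FMK and between 7.02 and 7.88 with OPH, and Cxcl11 has the widest interval, while in OPH against FMK only the interval of Ccl5 leaves out 0.

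The compounds were compared at the same dose and time in OPH against FMK, the single pair of compounds in the data. This contrast shares the FMK libraries in which the genes were known to be high, so the differences are given with their intervals as a description. Ccl5 was 1.8-fold higher with FMK than with OPH, a log2 difference of OPH over FMK of -0.85 ± 0.21 (95% interval -1.35 to -0.35). Cxcl11 was 2.2-fold higher with FMK, at -1.14 ± 0.57 (-2.51 to 0.23), and Cxcl10 1.4-fold higher, at -0.49 ± 0.31 (-1.23 to 0.25). Cxcl9 went the other way, at 0.21 ± 0.25 (-0.33 to 0.76). The intervals of Cxcl9, Cxcl10 and Cxcl11 include 0, and those of Cxcl10 and Cxcl11 also include a difference of more than 2-fold.

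In the fit without a replicate block none of the 4 genes was called in OPH against FMK, where 4.66% of all genes were called lower and 4.2% higher. Ccl5 missed the threshold narrowly (adjusted p = 0.0527). When the number of the library entered the fit as a replicate block, 2 of the 4 were called lower, Ccl5 at -0.82 (adjusted p = 5.00e-07) and Cxcl11 at -1.15 (adjusted p = 1.21e-05). In each numbered pair of libraries the FMK value of Ccl5, of Cxcl11 and of Cxcl10 was above the OPH value. Over all alternatives tried, the log2 difference of Ccl5 was -1.01 to -0.62, its adjusted p was 5.00e-07 to 0.14, and 8 of 18 called it. In libraries 1 and 2 alone the log2 difference was -0.95 for Ccl5 (adjusted p = 7.13e-04), -0.997 for Cxcl11, -0.64 for Cxcl10 and 0.29 for Cxcl9, and the last 3 were not called. In the authors' deposited table, FMK over OPH was 0.76 for Ccl5 (adjusted p-value 0.0214), 0.70 for Cxcl11, 0.40 for Cxcl10 and -0.20 for Cxcl9, again with the scale of these fold changes uncertain.

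The replicates did not vary alike for the 4 genes. Cxcl11 spread the most, with a highest-to-lowest ratio of 3.09 among the FMK libraries and 3.58 among the OPH libraries. The ratios with FMK were 2.08 for Cxcl10, 1.72 for Ccl5 and 1.24 for Cxcl9, and those with OPH were 1.23, 1.21 and 1.53. Library 1 held the least Cxcl11 and library 2 the most in both inhibitor groups. Cxcl9, Cxcl10 and Ccl5 were instead lowest in library 3 of both groups. Library 3 was also the one with the lowest summed adipocyte markers and the highest summed skeletal muscle markers of its group. The part of cell make-up in this pattern was not tested.

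Taken relative to Cxcl10, the libraries of the inhibitors did not overlap for 2 of 3 ratios, with no test run. How many of all genes have ratios to Cxcl10 without overlap was not counted, so the separation is not shown to be particular to these genes. By level alone, 13.2% of all genes tested had every FMK library above every OPH library. A ratio of 2 genes in the same library does not depend on library scaling, and here it is compared between libraries only, since 3′ counts do not rank genes by level. Per 100 counts of Cxcl10 there were 78.7, 76.7 and 93.0 counts of Ccl5 in the FMK libraries and 58.3, 67.6 and 64.2 in the OPH libraries. The FMK libraries were thus all richer in Ccl5. Cxcl9 showed the reverse, with 4.39, 3.23 and 5.41 counts per 100 of Cxcl10 with FMK and 6.76, 7.45 and 5.62 with OPH, again without overlap. Cxcl11 stood at 2.62, 5.84 and 10.7 with FMK and 1.48, 5.69 and 4.26 with OPH, which overlap. DMSO libraries had too few counts for such ratios.

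**Figure D3:**
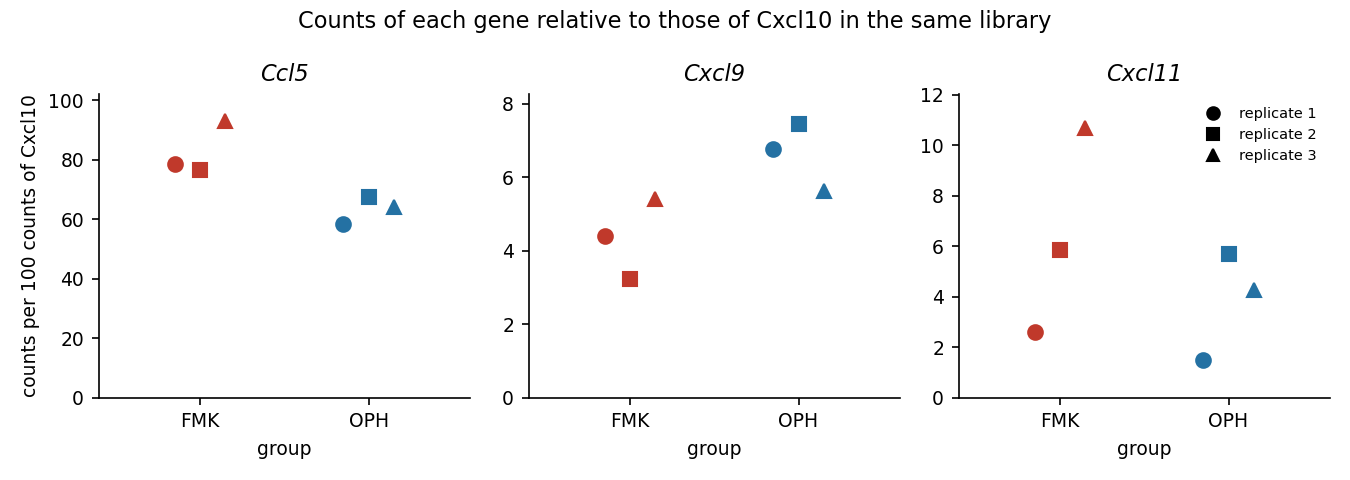
Counts of Ccl5, Cxcl9 and Cxcl11 per 100 counts of Cxcl10 in each FMK and OPH library, with the marker shape giving the replicate number. The FMK libraries lie above the OPH libraries for Ccl5 (76.7 to 93.0 against 58.3 to 67.6) and below them for Cxcl9 (3.23 to 5.41 against 5.62 to 7.45), and the groups overlap for Cxcl11. The share of all genes with such a separation was not counted.

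The genes whose pattern over the 9 libraries was most like each chemokine gene were found by Pearson's r of log2 CPM. The 9 points share the step between DMSO and inhibitor groups, which raises every r, so the coefficients are a description only. Cxcl10 was closest to Ifih1, which encodes the RNA sensor MDA5 (r = 0.9993), followed by Rsad2, Tap2, Ifit3b and Eif2ak2 (0.9964). Cxcl9 was closest to the antiviral gene Rsad2 (r = 0.9975), followed by Cmpk2, Ifit3b, Irgm2 and Ifih1 (0.9940). Ccl5 was closest to Ifit2 (r = 0.9994), followed by B2m, the light chain of MHC class I, then Helz2, Isg15 and Gbp2 (0.9982). The neighbours of these 3 genes are well-known interferon-stimulated genes.

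Cxcl11, whose DMSO values rest on 2 counts, shared none of these neighbours, and its own are less certain. They were led by Rcan1, a calcineurin inhibitor gene (r = 0.9906), and Pax5, a B cell transcription factor gene (0.9899). Hdgf, Mov10 and the metallothionein gene Mt2 (0.9828) followed. Of these, Rcan1 was at 31.9 ± 4.61 CPM in DMSO cultures and rose to 77.8 ± 7.43 under FMK and 63.1 ± 6.46 under OPH (adjusted p = 1.07e-06 and 4.18e-05, edgeR). Pax5 had 0 counts in the DMSO libraries and 4.68 ± 1.25 CPM with FMK and 2.99 ± 0.648 with OPH, at least 30.7-fold and 19.5-fold higher. Hdgf rose by only 0.36 ± 0.07 on the log2 scale with FMK, since r compares the shape of a pattern and not its size. Among the chemokine genes themselves, r was 0.9932 for Cxcl10 and Ccl5, 0.9919 for Cxcl9 and Cxcl10, and 0.9844 for Cxcl9 and Ccl5. It was lowest for Cxcl11, at 0.9649 with Ccl5, 0.9604 with Cxcl10 and 0.9338 with Cxcl9.

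Transcripts of CXCR3, CCR1 and CCR3 were near or at 0. Cxcr3, the receptor of CXCL9, CXCL10 and CXCL11, had 6 counts in DMSO 2 and 0 in the other 8 libraries, and a count of 0 in the inhibitor groups allows up to 0.167 CPM with FMK and 0.147 with OPH. Of the receptors of CCL5, Ccr3 had 2, 1 and 7 counts with DMSO and 0 in the inhibitor libraries, and Ccr1 had 1.44 ± 1.01 CPM with DMSO, 0.62 ± 1.07 with FMK and 0.19 ± 0.33 with OPH. Ccr1 was not called in either comparison with DMSO, but with the replicate block it was lower with OPH (log2 fold change -3.15, adjusted p = 0.0398).

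Some genes whose products hold or trim the chemokines were abundant enough to test. Ackr3, an atypical receptor that takes up CXCL11 and CXCL12, rose from 25.3 ± 5.28 CPM in DMSO cultures to 40.4 ± 7.85 under FMK and 41.2 ± 7.35 under OPH (adjusted p = 0.0151 and 0.0142). These calls did not hold without DMSO 2 (adjusted p = 0.0756 and 0.0693), without FMK 1 or FMK 2 for FMK, or without OPH 1 for OPH. Sdc4, a heparan sulphate proteoglycan of the cell surface to which chemokines adhere, was at 83.9 ± 11.2, 168 ± 2.99 and 78.2 ± 7.09 CPM. It rose with FMK (log2 fold change 1.00 ± 0.10, adjusted p = 1.36e-06) and was lower with OPH than with FMK (-1.11 ± 0.10, adjusted p = 7.00e-06). Its relative Sdc1, at 108 ± 11.7, 124 ± 8.32 and 96 ± 4.26 CPM, was lower with OPH than with FMK (-0.37 ± 0.10, adjusted p = 0.0238). That call of Sdc1 was lost with library size alone (adjusted p = 0.0949) and on leaving out FMK 1, FMK 2 or any OPH library (adjusted p = 0.0521 to 0.114). In libraries 1 and 2 alone Sdc1 was also called higher with FMK than with DMSO (0.33, adjusted p = 0.0347). The scavengers Ackr1 and Ackr2 and the peptidase Dpp4, which trims CXCR3 ligands, had at most 11 counts in any group and were not tested.

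Other chemokine genes changed in both directions. Of 31 in the list, 23 passed the filter, and 8 rose and 5 fell with FMK, while 8 rose and 3 fell with OPH. Of all genes tested, 10.4% rose and 10.1% fell with FMK, and 8.61% rose and 8.11% fell with OPH. With the replicate block 9 of the chemokine genes rose with FMK and 10 with OPH. The median log2 fold change was 0.54 with FMK and 0.51 with OPH, against -0.006 and -0.002 for all genes. Cxcl1, a neutrophil attractant, rose from 1.33 ± 0.372 CPM to 28.2 ± 10.1 with FMK and 7.55 ± 1.69 with OPH (log2 fold changes 4.38 ± 0.34 and 2.49 ± 0.36, adjusted p = 3.19e-08 and 9.18e-05). Ccl7, a monocyte attractant, rose from 18 ± 3.46 CPM to 214 ± 48.3 and 79.1 ± 12. Cx3cl1, the membrane-bound chemokine fractalkine, rose from 13.9 ± 2.52 CPM to 44.7 ± 7.23 and 32.3 ± 0.866. Ccl9, which macrophages express, fell from 22.5 ± 6.7 CPM to 3.81 ± 1.38 and 3.37 ± 1.04. None of the 23 rose by as much as Cxcl9, Cxcl10, Cxcl11 and Ccl5. Pf4, named after its values were seen, fell the furthest. It went from 107 ± 40.4 CPM to 0.668 ± 0.585 with FMK and 1.53 ± 1.06 with OPH (log2 fold changes -7.28 ± 0.69 and -6.08 ± 0.60, adjusted p = 4.04e-04 and 6.85e-04, edgeR).

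In OPH against FMK, 4 of these chemokine genes were lower and 3 higher, where 4.66% and 4.2% of all genes were. With the replicate block 9 of them were lower, but more of all genes were called lower with it too, as given in the closing section. The count was 7 without FMK 3 or with no low-count filter. Cxcl1 was lower with OPH by -1.90 ± 0.27 on the log2 scale (adjusted p = 2.67e-04) and Ccl7 by -1.44 ± 0.19 (adjusted p = 0.00185). Ccl2, a monocyte attractant, was at 312 ± 79.3 CPM with FMK and 146 ± 27.5 with OPH (-1.10 ± 0.24, adjusted p = 0.0309), a call lost without DMSO 1, FMK 1, FMK 2, OPH 1 or OPH 3 (adjusted p = 0.0551 to 0.102) and with the 2 groups fitted alone (adjusted p = 0.0527). Cxcl5 was at 59.4 ± 23.8 with FMK and 12.9 ± 3.88 with OPH (-2.21 ± 0.36, adjusted p = 0.00785). The 3 that were higher with OPH had fallen with FMK against DMSO. Ccl3, a macrophage inflammatory protein gene, was at 4.82 ± 1.44 CPM with DMSO, 0.113 ± 0.0989 with FMK and 2.49 ± 0.929 with OPH (OPH over FMK 4.27 ± 0.80, adjusted p = 0.00271). Ccl12, a monocyte attractant, was at 4.56 ± 1.67, 1.18 ± 0.672 and 8.95 ± 1.62 CPM (2.91 ± 0.46, adjusted p = 7.29e-04), and with the block it also rose with OPH against DMSO (1.01, adjusted p = 0.0456). Cxcl16, a membrane-bound chemokine, was at 22.1 ± 3.24, 10.7 ± 1.75 and 19.4 ± 4.66 CPM (0.86 ± 0.22, adjusted p = 0.0181), a call lost with limma-voom and without FMK 1, OPH 2 or OPH 3 (adjusted p = 0.0533 to 0.111). Ccl2, Cxcl5, Ccl3, Ccl12 and Cxcl16 were named after their values were seen. Cx3cl1 was not called without the block and was called with it (-0.47, adjusted p = 0.0278).

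Of the cytokines known to induce these chemokines, interferon beta was the one called higher. Its gene Ifnb1 had 0 counts in the DMSO libraries, 66, 75 and 49 with FMK and 25, 21 and 34 with OPH. The groups did not overlap, and the gene was at least 68.6-fold higher with FMK and at least 25.5-fold higher with OPH (adjusted p = 4.27e-07 and 1.44e-05). OPH libraries held less than FMK libraries (log2 difference -1.40 ± 0.36, adjusted p = 0.0249), a call lost on leaving out FMK 1, FMK 2, OPH 1 or OPH 2 (adjusted p up to 0.11). Ifng, the gene of interferon gamma, had 0 counts in all 9 libraries, as did Ifnl2, Ifnl3 and Il1a. Tnf, the gene of tumour necrosis factor, had 18, 4 and 7 counts with DMSO, 0, 0 and 7 with FMK and 1, 3 and 1 with OPH, too few for the filter. Il1b, of interleukin 1 beta, had 10 counts with DMSO, all in DMSO 2, 0 with FMK and 8 with OPH and was not tested either. Il6, of interleukin 6, was at 0.533 ± 0.923, 2.96 ± 1.29 and 1.59 ± 1.86 CPM with DMSO, FMK and OPH and was not called, but with the block it was called higher with FMK (2.95, adjusted p = 0.0275), as it was with no filter and without DMSO 3, which holds all of its DMSO counts. Of 16 cytokine and receptor genes, 9 were tested, and 4 rose and 1 fell with FMK (6 and 1 with the block) and 2 rose with OPH (1 without DMSO 1, DMSO 2 or OPH 1). The shares over all genes were 10.4% risen and 10.1% fallen with FMK and 8.61% risen with OPH. In OPH against FMK 2 of the 9 were lower, where 4.66% of all genes were. That count was 5 with the block, where more of all genes were called lower too, and 1 without FMK 1, FMK 2, OPH 1 or OPH 2.

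The receptor genes of that list that were called had log2 fold changes under 1 in size. Tnfrsf1a, the main TNF receptor, rose by 0.56 ± 0.08 with FMK and 0.30 ± 0.08 with OPH on the log2 scale (adjusted p = 7.52e-05 and 0.0156), the second call being lost without DMSO 1, DMSO 2 or OPH 1 (adjusted p up to 0.0739). Ifnar2, a chain of the receptor for interferon beta, rose by 0.58 ± 0.12 with FMK (adjusted p = 0.00218). Il1r1, the receptor of interleukin 1, was at 37.3 ± 2.92 CPM with DMSO, 57.2 ± 12.1 with FMK and 32.9 ± 6.35 with OPH. It rose with FMK (0.62 ± 0.16, adjusted p = 0.0123, lost without FMK 1 or FMK 2 at 0.0511 and 0.0683) and was lower with OPH than with FMK (-0.80 ± 0.17, adjusted p = 0.00604). Tnfrsf1b, the other TNF receptor, had the largest fold change with FMK among the tested receptor genes of the list, from 13.3 ± 5.21 to 31.4 ± 14.6 CPM (1.25 ± 0.46), and was not called (adjusted p = 0.108). It was called with DESeq2, limma-voom and the block (adjusted p = 0.00342, 0.0373 and 9.81e-06), and with the block it was also lower with OPH than with FMK (-0.92, adjusted p = 6.70e-04). The other interferon receptor chain, Ifnar1, was at 39.1 ± 6.35, 33.3 ± 3.71 and 33.1 ± 2.36 CPM with DMSO, FMK and OPH and was not called. The gene that fell with FMK was Ifngr1, named like Il6, Il1r1 and Tnfrsf1b after its values were seen, by 0.36 ± 0.12 (adjusted p = 0.0433), and 11 of the alternatives, DESeq2 and limma-voom among them, did not call it.

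Transcription factors that act on these promoters, and their feedback regulators, mostly rose. Of 19 genes, all tested, 13 rose and 1 fell with FMK, and 12 rose and 1 fell with OPH, with median log2 fold changes of 1.39 and 0.97. The shares over all genes were 10.4% and 10.1% with FMK and 8.61% and 8.11% with OPH. Not called were 5 genes with FMK and 6 with OPH, among them Irf3 and Nfkb1, named after their values were seen. Irf9, the DNA-binding part of the interferon-activated complex ISGF3, went from 58.9 ± 9.09 CPM to 250 ± 13.8 with FMK and 280 ± 12.3 with OPH (adjusted p = 1.07e-10 and 7.16e-11). Stat2, its partner, rose from 32.2 ± 7.91 CPM to 333 ± 43.6 and 311 ± 27.4. Irf1, a factor for Cxcl9 and Cxcl10 among others, rose from 49.4 ± 2.12 CPM to 195 ± 45.5 and 153 ± 9.26. Usp18, a feedback inhibitor of interferon signalling, rose from 10.4 ± 3.98 CPM to 380 ± 17.4 and 335 ± 16.1, and Nfkbia, the feedback inhibitor of NF-kB, from 197 ± 10.5 to 543 ± 82.7 and 386 ± 28.1.

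The gene of this list that fell in both comparisons was Irf8, a myeloid factor named after its values were seen, with log2 fold changes of -3.40 ± 0.46 and -2.08 ± 0.41 (adjusted p = 3.32e-05 and 0.00173). With FMK, 2 genes fell rather than 1 under the replicate block and without FMK 2. In OPH against FMK, Nfkbia (-0.49 ± 0.10, adjusted p = 0.00423) and Socs3, a feedback inhibitor of cytokine signalling (-1.48 ± 0.17, adjusted p = 2.03e-04), were lower and no gene of the list was higher. Of all genes tested, 4.66% were lower and 4.2% higher in that fit. With the block 6 genes of the list were lower, Irf1 among them (-0.34, adjusted p = 0.0191), and Irf8 was higher (1.35, adjusted p = 0.0372), while 4 were lower in libraries 1 and 2 alone. More of all genes were called with the block too, as given in the closing section.

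Genes whose products sense foreign nucleic acid or relay its signal rose in 8 of 11 cases with FMK and 6 of 11 with OPH, and none fell. Of all genes tested, 10.4% rose with FMK and 8.61% with OPH. Whether these genes rose before or after Ifnb1 was not tested. The list holds 6 sensor genes (Ddx58, Ifih1, Dhx58, Tlr3, Zbp1 and Mb21d1), which rose in both comparisons, and 5 genes of adaptors and kinases, of which Tmem173 and Ikbke rose with FMK, and Mavs, Tbk1 and Ticam1 were called in neither comparison. The median log2 fold change was 1.38 with FMK and 0.79 with OPH. Ddx58, the gene of the RNA sensor RIG-I, rose from 40.6 ± 4.61 CPM to 256 ± 16.2 and 245 ± 8.32 (adjusted p = 2.33e-12 and 3.89e-12). Ifih1 rose from 5.23 ± 2.13 CPM to 157 ± 18.7 and 131 ± 8.55, and Tlr3, the endosomal sensor of double-stranded RNA, from 4.16 ± 0.868 to 45.4 ± 4.95 and 46.2 ± 3.58. Tmem173, the gene of the adaptor STING and the one gene of the list that was lower with OPH than with FMK (log2 difference -1.32 ± 0.14, adjusted p = 2.70e-05), was at 31.6 ± 6.71, 82 ± 7.82 and 32.9 ± 3.01 CPM with DMSO, FMK and OPH. Of all genes tested, 4.66% were lower with OPH than with FMK in the fit without the block. With the block, where more of all genes were called, 3 genes of the list were lower with OPH than with FMK. The kinase gene Ikbke was among them (-0.93, adjusted p = 0.0277), and 2 genes of the list were lower in libraries 1 and 2 alone.

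**Figure D4:**
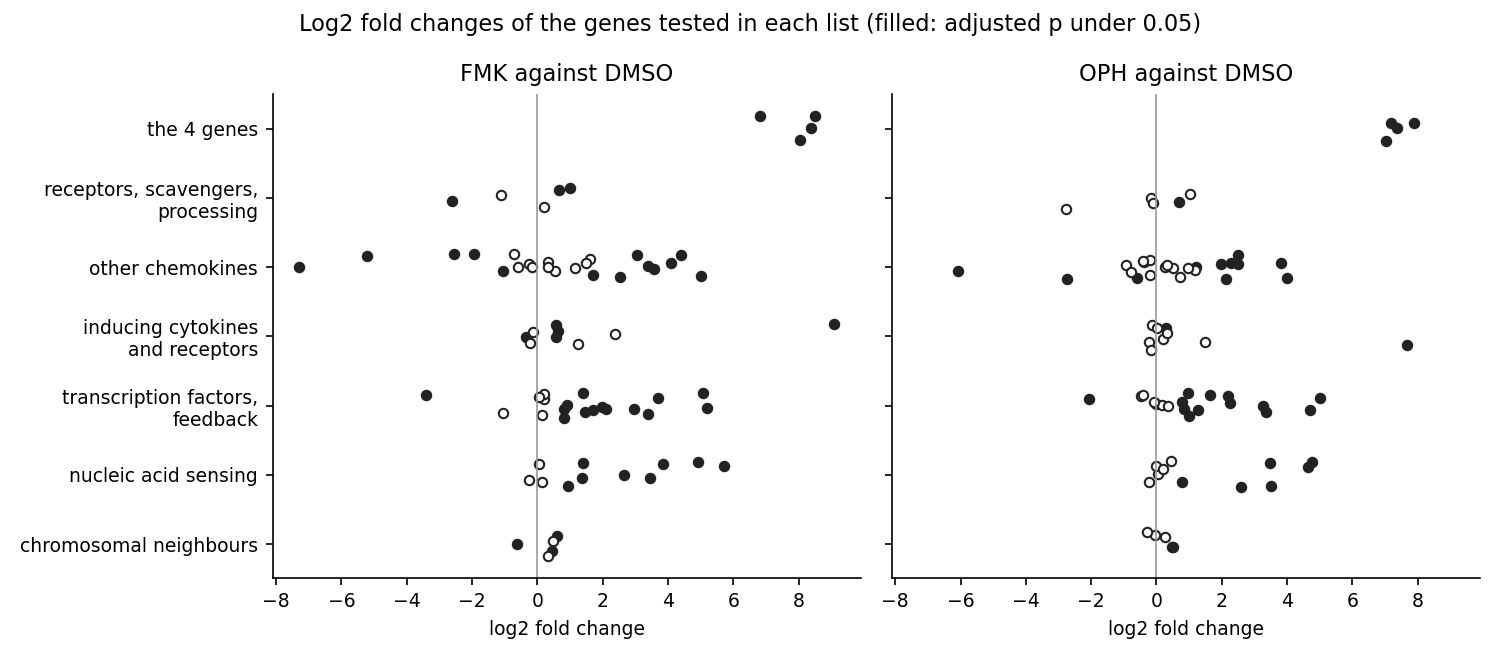
Log2 fold changes of every tested gene of the 4 chemokine genes and of 6 gene lists against DMSO, filled where the adjusted p is under 0.05, with vertical offsets within a row only to separate points. The 4 genes lie at 6.80 to 8.50 with FMK and 7.02 to 7.88 with OPH. The lists of transcription factors and of nucleic acid sensing genes have medians of 1.39 and 1.38 with FMK and 0.97 and 0.79 with OPH.

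The tested genes beside the CXCR3 ligand cluster had small fold changes. Of 7 neighbours on chromosome 5, 5 were tested, with median log2 fold changes of 0.45 with FMK and 0.26 with OPH. Sdad1 rose by 0.60 ± 0.13 with FMK and 0.52 ± 0.12 with OPH (adjusted p = 0.00207 and 0.00754). Scarb2, a lysosomal membrane protein gene, rose by 0.45 ± 0.11 and 0.46 ± 0.11 (adjusted p = 0.00793 and 0.00839). Without DMSO 1 only 1 neighbour was called higher with OPH. Parm1 fell with FMK by 0.62 ± 0.13 (adjusted p = 0.00152).

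Art3 spans Cxcl10 and Cxcl11 on the opposite strand, from 92331827 to 92414628, and shares 133 exonic bases with the 3′ end of Cxcl10 (92346638 to 92346770). Its counts were 0, 1 and 0 with DMSO, 8, 15 and 3 with FMK and 3, 13 and 8 with OPH, too few for the filter. Every inhibitor library of Art3 thus lay above every DMSO library, with means of 0.0538 CPM with DMSO, 1.39 with FMK and 1.18 with OPH. Whether the counting used the strand is not given in the sources used here, so reads in the shared bases cannot be told apart, and the low Art3 counts are uncertain. The processed pseudogene Gm2673 shares 1582 exonic bases with Cxcl11, 4360 bases from its 3′ end, and had 0 counts in all libraries.

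Markers of the cell types that answer to these chemokines, or that make them, were measured in the same libraries. In bulk RNA, fewer cells of a type and less RNA per cell cannot be told apart. Of 17 macrophage and myeloid marker genes, all 17 fell with FMK and all 17 fell with OPH, where 10.1% and 8.11% of all genes fell, with median log2 fold changes of -5.85 and -2.78. Their summed level was 1410 to 2698 CPM in DMSO libraries, 35.9 to 50.7 in FMK libraries and 232 to 269 in OPH libraries. Tyrobp, a myeloid adaptor, went from 119 ± 24.7 CPM to 1.07 ± 0.409 and 12.3 ± 1.48, and the macrophage gene Adgre1 had 6, 0 and 1 counts in the FMK libraries. The 4 chemokine genes, with a summed level of 3.39 to 7.93 CPM in DMSO libraries, 1031 to 1908 in FMK libraries and 828 to 990 in OPH libraries, were thus high in the libraries with the fewest macrophage transcripts.

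T cell and NK cell markers were scarce. Of 15 such genes, 6 had 0 counts in all 9 libraries, among them the T cell receptor chain Cd3e, the co-receptor genes Cd8a and Cd8b1, and Gzma, Prf1 and Ncr1 of cytotoxic cells. Their summed level was 2.58 to 5.23 CPM in DMSO libraries, 7.44 to 10.9 in FMK libraries and 6.27 to 12.5 in OPH libraries. One of them passed the filter, the kinase gene Lck, which rose from 1.46 ± 0.635 CPM to 6.46 ± 0.499 and 8.24 ± 3.48 (adjusted p = 0.00149 and 4.68e-04). Among 10 B cell and dendritic cell markers, Ms4a1, Flt3 and Xcr1 were at 0 in all libraries, and Pax5 rose as given above. The summed level of that list was 6.85 to 7.74, 10.8 to 14.2 and 8.27 to 11.5 CPM, and Zbtb46 was not called.

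Markers of the culture's own cells changed as well. Of 12 cartilage markers, 10 fell with FMK and 6 with OPH, where 10.1% and 8.11% of all genes fell. The count with OPH was 11 with the replicate block, 11 with limma-voom, 10 without OPH 3 and 4 to 10 on leaving out a library. Their summed level was 2573 to 3680 CPM in DMSO libraries, 1334 to 1442 in FMK libraries and 1260 to 2185 in OPH libraries. Of 10 mesenchyme and fibroblast markers, 3 rose and 1 fell with FMK, where 10.4% of all genes rose. With OPH 2 rose and 4 fell (6 fell with the block), where 8.61% of all genes rose. The 2 that rose with OPH became 0 without DMSO 1 and 1 without OPH 1, OPH 2 or OPH 3 or in libraries 1 and 2 alone. The summed level of this list was 25406 to 27062, 26228 to 27898 and 20133 to 20508 CPM. Adipocyte markers fell in 5 of 9 tested genes with FMK (9 with the block, 9 with DESeq2, 9 without DMSO 3, and 1 to 3 without DMSO 1, DMSO 2, any FMK library or OPH 1). None was called with OPH against DMSO, where 1 rose and 1 fell with the block, and 1 was higher with OPH than with FMK, where 9 were with the block, 7 without DMSO 3, 2 without OPH 3 and none without any other inhibitor library. In libraries 1 and 2 alone 10 adipocyte genes fell with FMK, 2 fell and 1 rose with OPH, and 9 were higher with OPH than with FMK. Their summed level was 112 to 204 CPM with FMK and 722 to 2793 with OPH. None of 9 tested skeletal muscle genes was called against DMSO in the fit of all libraries without the block, and with it 4 fell with FMK while 2 rose and 1 fell with OPH. Myh8, a myosin heavy chain gene, stood at the threshold with FMK (-1.70 ± 0.51, adjusted p = 0.0501) and was called lower under 9 alternatives, among them DESeq2 (adjusted p = 3.24e-04), limma-voom (adjusted p = 0.00711), libraries 1 and 2 alone (adjusted p = 5.86e-05) and without FMK 3 or OPH 3 (adjusted p = 0.00219 and 0.017). With OPH, Myh8 was called lower with no filter (adjusted p = 0.0396) and in libraries 1 and 2 alone (adjusted p = 0.0117), and Ttn, of the muscle protein titin, was called higher without DMSO 3 (adjusted p = 0.0351). Of 8 endothelial genes, 2 were tested and not called. The part of these shifts in the rise of the chemokine genes was not tested, and the cells that made the transcripts cannot be told from bulk RNA.

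**Figure D5:**
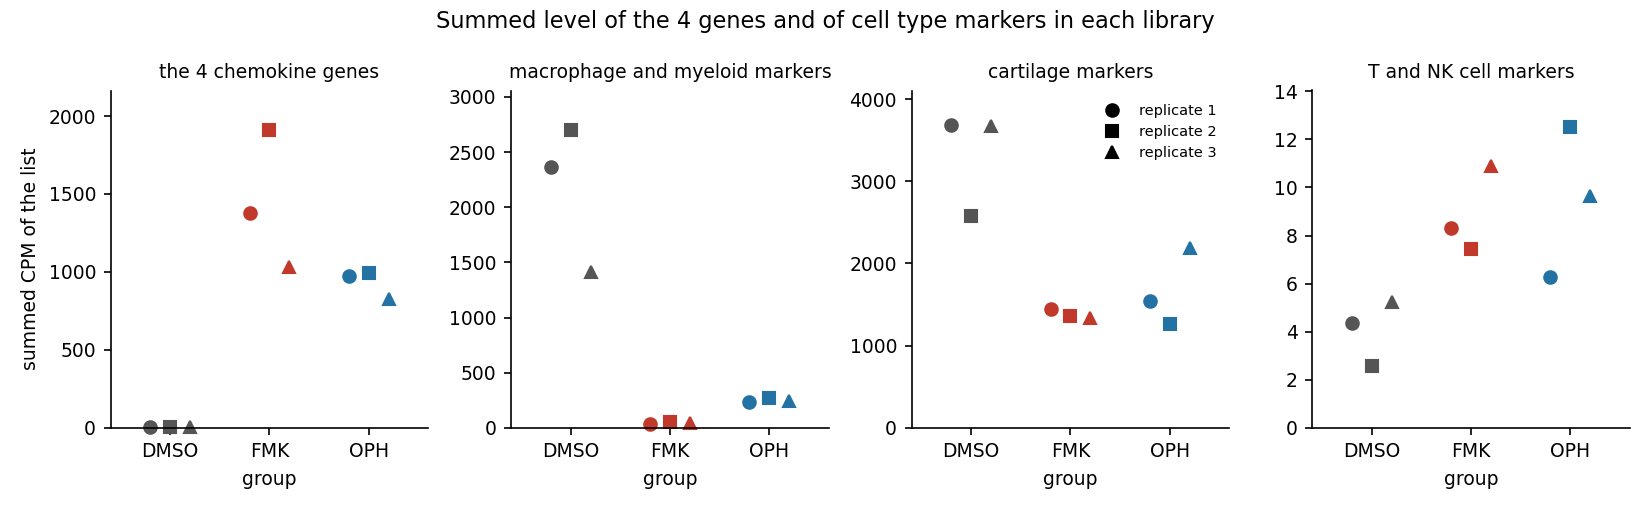
Summed CPM, on linear axes with a scale of its own in each panel, of the 4 chemokine genes and of 3 marker lists in each library, with the marker shape giving the replicate number. The chemokine genes go from 3.39 to 7.93 CPM with DMSO to 828 to 1908 with the inhibitors, macrophage markers go from 1410 to 2698 to at most 269, and T and NK cell markers lie at or below 12.5.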

How the data were processed

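Cultures of 3 groups with 3 libraries each were sequenced from transcript 3′ ends. Raw counts per gene and library were used as the authors deposited them. DESeq2 log2 fold changes with standard errors and adjusted p-values for each pair of groups were deposited too, per the file headers, and are quoted only where named. The submitters' processing notes name cutadapt, STAR, DESeq2, FastQC and MultiQC and the build mm10. Not given in the sources used here are the counter, annotation, strand setting and treatment of multiply mapped reads.

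The table held 52550 genes, of which 52403 identifiers (99.7%) were found in GENCODE M21, while 99 spike-in rows, which held 1 count together, were dropped. Counts were tested in R 4.3.3 with edgeR 4.0.16: filterByExpr (13255 genes, at least 99.7% of counts), TMM, and a robust quasi-likelihood fit of all 9 libraries with a coefficient per group, F test, two-sided, Benjamini-Hochberg over all genes, threshold 0.05. The code was tested on simulated data. Log2 CPM for likeness used a prior count of 2, and intervals are at 95%. A gene with 0 counts in a group was taken at 3 counts over the group for a lower bound. TMM factors were 1.02 to 1.03 with DMSO and with OPH and 0.945 to 0.962 with FMK. With library size alone as the scale, the all-gene median of the log2 fold changes was -0.107 in FMK against DMSO and 0.117 in OPH against FMK.

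The labels number the libraries 1 to 3 in each group without saying that equal numbers share a litter or day. Deviations from the group means correlated at 0.102 to 0.344 in the 9 pairs of equal number and at -0.275 to 0.015 in the others, and 18 of 18 best matches had the same number. Deviations within a group sum to 0, so the values of the other pairs and the best matches are not evidence separate from the 9 pairs. On these values the numbers were taken as pairing the libraries. The fit without a block ignores this pairing, so differences between the numbers count as spread within a group there. Blocked values are given where they change the call of a gene described here or move a printed count by 1.5 times or more. The shares over all genes printed beside the lists come from the fit without a block. They are not the shares that belong to counts with the block or under another alternative.

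The 4 genes and the gene lists were chosen with earlier results of these data known. Named from each list were up to 3 genes with the smallest p in each comparison with DMSO, all receptor genes, absent markers, and the 5 genes most like each chemokine gene. Some genes under this rule are not reported here. Alternatives were DESeq2 1.42.0, limma-voom (limma 3.58.1), RLE scaling, library size alone, no filter, a stricter filter (CPM of 1 in 3 libraries), the replicate block, the 2 groups compared alone, libraries 1 and 2 alone, and leaving out each library. Applying them to the lists and named genes was decided after seeing the data.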

Additional observations from a re-analysis of the deposited data

How the results depend on the processing

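No alternative reversed the direction of any of the 4 chemokine genes in any comparison. In FMK against DMSO and OPH against DMSO, Cxcl9, Cxcl10 and Ccl5 kept their calls under all 18 alternatives. Cxcl11 lost its call in libraries 1 and 2 alone in both (adjusted p = 0.187 with FMK), and with OPH also with limma-voom and without DMSO 3. The 4 genes were chosen because they were high with FMK, and every alternative drew on the same libraries. Calls that were kept thus describe the processing and are not support. The log2 fold changes over the alternatives were 6.22 to 10.63 for Cxcl9, 8.03 to 9.0 for Cxcl10, 8.0 to 11.14 for Cxcl11 and 7.74 to 8.36 for Ccl5 with FMK, the upper ends of Cxcl9 and Cxcl11 coming from fits in which the DMSO group held no count.

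In OPH against FMK the number of these genes called lower, 0 in the fit without a block, was 1 with DESeq2, 1 with limma-voom, 2 with the replicate block, 1 in libraries 1 and 2 alone, and 0 to 1 when leaving out a library. It was 1, Ccl5, without DMSO 1, DMSO 3, FMK 2 or FMK 3. Over all genes, 557 were higher and 618 lower, against 1103 and 385 with library size alone and 1031 and 1108 with the replicate block. Leaving out a library gave 265 to 668 higher and 306 to 718 lower, with at most 410 lower without FMK 1, FMK 2 or any OPH library. In OPH against DMSO, leaving out a library gave 696 to 1178 genes called lower, against 1075, the lowest without OPH 2.

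The replicate block changed no other call of the 4 chemokine genes. Among their most similar genes it called Tap2 (-0.31), Mov10 (-0.43), Ifit2 (-0.44) and Helz2 (-0.40) lower in OPH against FMK, and among the lists also Tnfrsf1a (-0.26) and Ifnar2 (-0.39). At this depth a gene with 0 counts in the 3 DMSO libraries may lie at up to 0.154 CPM, so the DMSO levels of Cxcl9 and Cxcl11, and with them their fold changes, are the least certain.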
